A study of Homo sapiens with 3 samples.

Results

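The ETS1 peaks at bidirectional promoters are the peaks that lay where a pair of protein-coding genes start close together and are read in opposite directions. A peak was counted if its midpoint was within 500 bp of the canonical transcription start site (TSS) of a protein-coding gene, and if that TSS lay head to head with, and at most 1000 bp from, the canonical TSS of another protein-coding gene. The list of binding events held 26970 peaks, of which 26958 were on chromosomes 1 to 22 and X, and 813 of these met the rule (3.02%, 95% Wilson interval 2.82 to 3.23). The genome holds 974 such pairs by this definition, and pairs that shared a gene were merged into 904 loci with 1877 genes, 837 loci being a single pair and 67 holding several. Distances at a merged locus were taken from its closest pair of named genes.

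The peaks came from chromatin immunoprecipitation and sequencing (ChIP-Seq) of ETS1 in SCC25, an established squamous carcinoma line of the tongue that the labels describe as mesenchymal, with no treatment or genetic change named. ETS1 was pulled down in 3 samples, using antibody C20 in 2 of them and antibody 501A in the other. The deposited list is 1 consensus of all 3 and gives where each peak begins and ends, without height, score, summit or a value for any single sample. The spread between replicates and the depth behind a peak are therefore unknown, no test between conditions was possible, and all intervals cover counting error only.

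ETS1 is the founding member of the ETS transcription factors, which share a winged helix-turn-helix domain and bind DNA around a GGAA core. Flanking bases tune the site, and the longer CCGGAAG is a form bound well by many members of the family, GABP among them. A bidirectional promoter serves the genes on either side of it from a single nucleosome-depleted stretch. Such promoters are usually CpG islands without a TATA box, and they often drive housekeeping genes for DNA repair, translation and mitochondria.

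The DNA between the TSSs is shown first for 5 of the occupied loci with most CCGGAAG sites there: the 3 with 4 sites, and of the 5 tied at 3 sites the 2 with the widest peaks. Each is the hg19 plus strand, 5′ to 3′, from the part between the TSSs that lies under the peak and that no exon of a coding gene covers, and the capitals mark CCGGAAG or its reverse complement CTTCCGG. The minus-strand gene is named first.
ERH/SLC39A9, chr14:69865321-69865406: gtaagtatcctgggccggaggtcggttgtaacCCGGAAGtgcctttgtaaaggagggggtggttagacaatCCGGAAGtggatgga
TADA3/ARPC4, chr3:9834696-9834765: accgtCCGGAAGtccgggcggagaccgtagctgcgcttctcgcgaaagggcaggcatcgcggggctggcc
TSTD2/NCBP1, chr9:100395651-100395949: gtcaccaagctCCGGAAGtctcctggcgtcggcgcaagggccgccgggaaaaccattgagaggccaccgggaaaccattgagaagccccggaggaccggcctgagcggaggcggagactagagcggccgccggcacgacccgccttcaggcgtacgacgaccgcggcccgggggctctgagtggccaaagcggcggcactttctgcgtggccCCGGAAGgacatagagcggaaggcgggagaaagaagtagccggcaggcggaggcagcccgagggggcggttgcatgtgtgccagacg
TRMT112/PRDX5, chr11:64085058-64085357: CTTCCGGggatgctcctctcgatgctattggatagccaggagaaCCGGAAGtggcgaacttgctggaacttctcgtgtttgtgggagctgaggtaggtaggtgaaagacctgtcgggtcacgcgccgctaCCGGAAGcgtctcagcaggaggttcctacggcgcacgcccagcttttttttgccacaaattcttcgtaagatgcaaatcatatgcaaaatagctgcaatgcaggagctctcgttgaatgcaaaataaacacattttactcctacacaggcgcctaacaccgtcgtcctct
GNL1/PRR3, chr6:30524750-30525049: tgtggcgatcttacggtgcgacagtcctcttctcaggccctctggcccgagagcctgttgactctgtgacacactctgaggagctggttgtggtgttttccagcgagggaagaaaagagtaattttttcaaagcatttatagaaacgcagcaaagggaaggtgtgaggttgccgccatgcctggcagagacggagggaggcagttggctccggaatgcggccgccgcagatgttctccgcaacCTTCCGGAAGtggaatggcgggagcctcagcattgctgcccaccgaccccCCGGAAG

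The genes of these loci have everyday cellular roles. ERH is a small conserved protein of RNA metabolism and SLC39A9 a zinc transporter, and their TSSs lay 393 bp apart with 4 sites between them, 2 of which are in the 86 bases shown. The peak there was 1581 bp wide and its midpoint lay 16 bp from the nearest site. TADA3, an adaptor of histone acetyltransferase complexes, and ARPC4, a subunit of the Arp2/3 actin nucleator, also had 4 sites, in 609 bp. TRMT112, an activator of methyltransferases, and PRDX5, a peroxiredoxin, had 4 in 562 bp. At TSTD2/NCBP1 (NCBP1 is the large subunit of the nuclear cap-binding complex) and GNL1/PRR3 there were 3 sites each, and the site pair of GNL1/PRR3 written as CTTCCGGAAG reads as CCGGAAG on both strands. The midpoint did not always fall on the sites. At GNL1/PRR3 the peak was 2408 bp wide, its midpoint lay 43 bp from the GNL1 TSS and 763 bp from that of PRR3, and no CCGGAAG was within 100 bp of it.

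Most members looked different, and 3 loci known from textbooks are shown as the contrast, since each had a peak and no CCGGAAG in the DNA shown. The 200 bp around the midpoint of the SARS2/MRPS12 peak, which reach beyond that DNA, did hold 1 site.
TMEM258/FEN1, chr11:61560275-61560382: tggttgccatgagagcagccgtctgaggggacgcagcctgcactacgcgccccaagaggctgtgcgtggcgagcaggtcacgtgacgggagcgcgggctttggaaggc
SARS2/MRPS12, chr19:39421404-39421583: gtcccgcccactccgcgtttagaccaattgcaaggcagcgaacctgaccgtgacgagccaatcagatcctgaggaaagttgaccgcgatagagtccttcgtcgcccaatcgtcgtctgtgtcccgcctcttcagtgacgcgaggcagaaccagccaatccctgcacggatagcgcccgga
COL4A1/COL4A2, chr13:110959505-110959604: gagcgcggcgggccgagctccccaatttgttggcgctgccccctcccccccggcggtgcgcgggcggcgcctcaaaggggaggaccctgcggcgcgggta

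TMEM258, a subunit of the oligosaccharyltransferase, and FEN1, the flap endonuclease of replication and repair, had TSSs 312 bp apart. Their peak (chr11:61559579-61560929, 1351 bp) stood on line 417 of the list. SARS2 and MRPS12, a seryl-tRNA synthetase and a ribosomal protein that both work in mitochondria, were 181 bp apart under a peak of 1506 bp. COL4A1 and COL4A2, the chains of the common type IV collagen of basement membranes, were 127 bp apart under a peak of 2558 bp. The sequence thus varied widely among occupied loci, and letters absent from these windows say nothing about sites elsewhere under the peaks.

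ETS1 peaks were found at most of the loci. Of the 904 loci, 805 had a peak by the midpoint rule (89%, 86.8 to 90.9), and 99 had none by it. A locus offers a longer search window than a single TSS, so the share was also taken per gene with the same window for all. By that measure, 1546 of 1877 genes of divergent loci had a peak midpoint within 500 bp of the TSS (82.4%, 80.6 to 84.0), against 46.9% of all 19819 coding genes and 43.2% of the 17942 that have no divergent coding partner. The difference between the genes of divergent loci and the other genes was 39.2 percentage points (95% Newcombe interval 37.3 to 41.0). Both genes of a locus often share 1 peak and are not independent, so this interval is too narrow.

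CpG content differed between these classes and was held apart. A TSS was called CpG-rich if the 500 bp to either side held at least 50% GC and an observed to expected CpG ratio of at least 0.6, and 90.8% of the genes of divergent loci were of this kind. Among CpG-rich genes, 85.5% of those in divergent loci had a peak (1457 of 1704, 83.8 to 87.1) and 61.9% of the others, a difference of 23.6 points (21.7 to 25.5). Among CpG-poor genes the shares were 51.4% (89 of 173) and 12.1% (815 of 6739), a difference of 39.4 points (31.9 to 46.7). A divergent long non-coding RNA (lncRNA) gene gave a value in between. CpG-rich coding genes whose divergent neighbour was a lncRNA gene had a peak in 74.7% (1259 of 1686, 72.5 to 76.7), 10.8 points (8.16 to 13.5) below those with a coding neighbour, and genes with neither had one in 59.6% (5671 of 9517). Genes of a divergent locus often share a peak here too, so the intervals that involve them are too narrow.

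**Figure D1:**
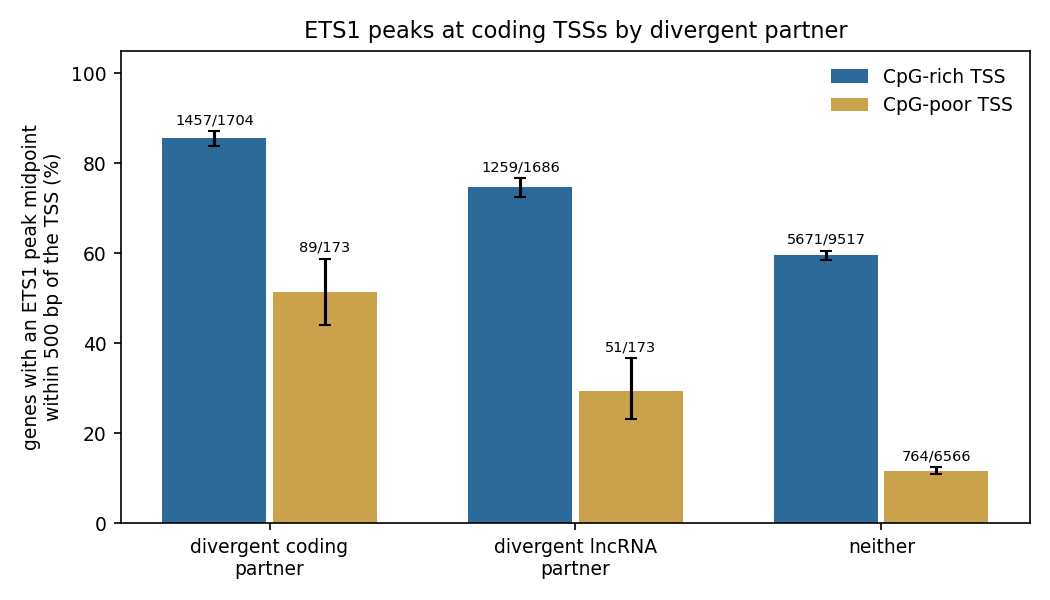
Share of coding genes with an ETS1 peak midpoint within 500 bp of the TSS (vertical axis, %), for genes with a divergent coding TSS, a divergent lncRNA TSS or neither within 1000 bp, with CpG-rich TSSs in blue and CpG-poor TSSs in yellow. Bars are shares with 95% Wilson intervals and the counts above them. In both CpG classes the share was highest with a coding partner (85.5% and 51.4%) and lowest with neither (59.6% and 11.6%). Genes with a divergent coding partner often share a peak with it, so their intervals are too narrow.

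Loci were occupied at every distance between the TSSs, and the intervals of the 5 distance classes overlapped. Of loci with TSSs 1 to 100 bp apart, 145 of 168 were occupied (86.3%), and of those 501 to 1000 bp apart 141 of 155 (91.0%), with intervals of 80.3 to 90.7 and 85.4 to 94.5. The values between were 86.0%, 90% and 92.6%. CpG content went with a wider gap, since 759 of 836 CpG-rich loci were occupied (90.8%, 88.6 to 92.6) and 46 of 68 CpG-poor loci (67.6%, 55.8 to 77.6).

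One peak usually spanned the whole promoter. Of the 813 peaks, 770 covered both TSSs (94.7%) and 812 covered at least 1, and at 688 of the 805 occupied loci (85.5%) both TSSs had a peak midpoint within 500 bp. The rule held midpoints within 500 bp of a TSS, the lower quartile of width was 1090 bp and the median TSS distance of all loci 234 bp. These shares were thus largely set by the rule and the widths. With TSSs 501 to 1000 bp apart, 75.8% of peaks covered both. The midpoint lay between the TSSs in 399 peaks (49.1%, 45.7 to 52.5), inside the minus-strand gene in 220 and inside the plus-strand gene in 194. The stretch between the TSSs made up on average 21.4% of the window in which a midpoint could count. The median midpoint was 90 bp from the nearer TSS (quartiles 44 and 165) and 123 bp from the centre between the TSSs (54 and 231.5), and the signed median of -10 bp gave no lean to either strand. The midpoint of a peak is not its summit, which the list does not hold.

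How far the midpoint sat between the genes depended on the room there. With TSSs 1 to 100 bp apart, 14.5% of midpoints lay between them (6.30% of the window), with 201 to 300 bp it was 54.4% (20.1% of the window), and with 501 to 1000 bp 71.1% (41.2% of the window). In each class the share of midpoints was above the share of the window. That share assumes midpoints spread evenly, but at other CpG-rich promoters they also lay close to the TSS (median distance 151 bp). The stretch between the TSSs is near both of them, so this excess does not show a preference for it. Peaks at promoters without a divergent coding partner, some of which have a divergent lncRNA TSS, were measured from a single TSS. A midpoint between divergent TSSs is upstream of both genes, as were 49.1% of members, and the room there is limited by the distance between the TSSs. The measures are therefore not fully alike. At other CpG-rich coding promoters the median midpoint was 86 bp downstream of the TSS, inside the gene (quartiles -50 and 214), and 33.1% of 6691 midpoints were upstream.

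**Figure D2:**
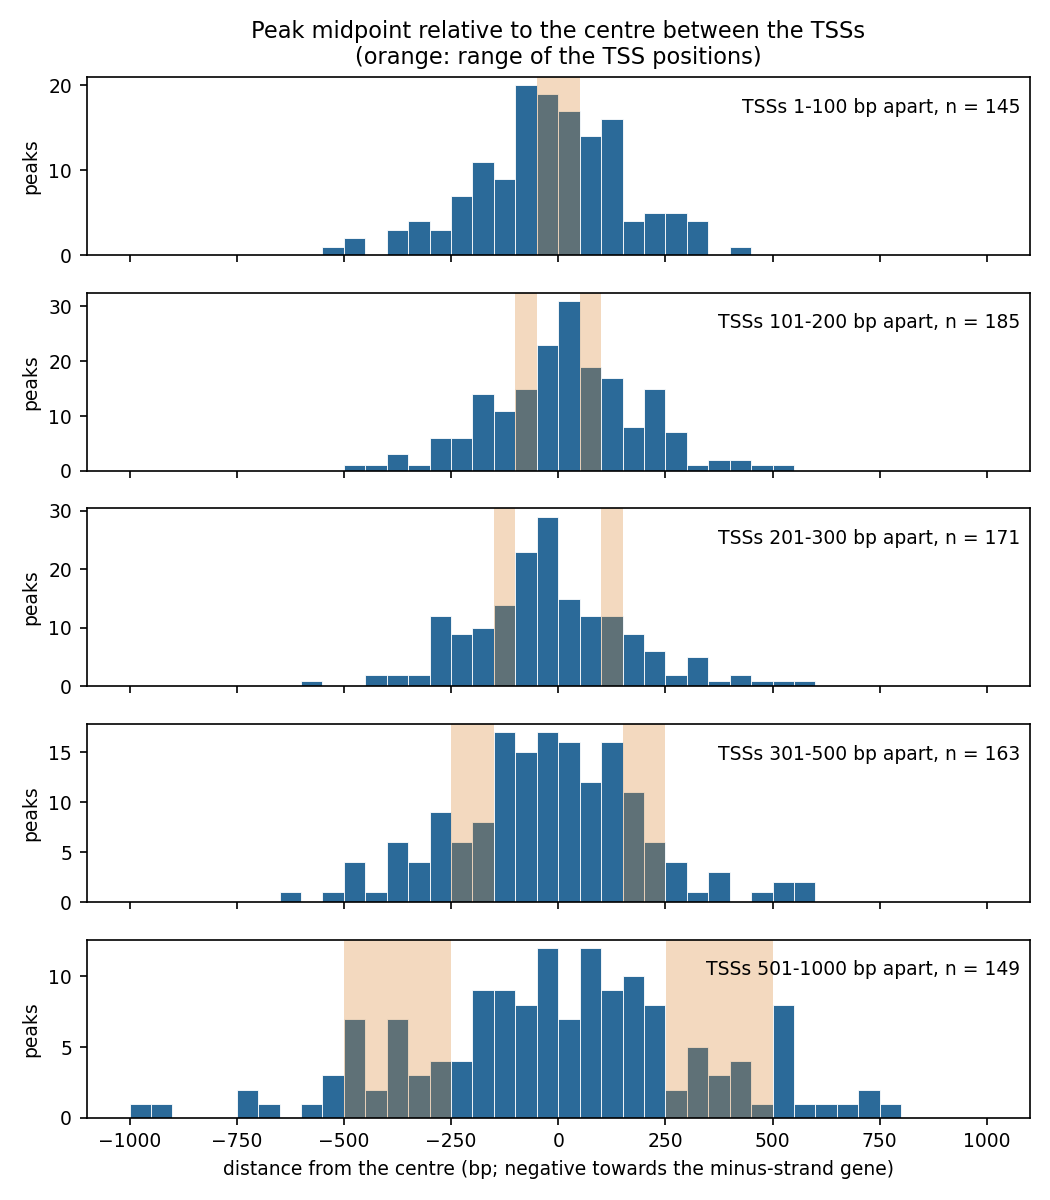
Number of ETS1 peaks (vertical axes) by the distance of the midpoint from the centre between the divergent TSSs (horizontal axis, bp in bins of 50, negative towards the minus-strand gene), in 5 classes of TSS distance, with the range of TSS positions in orange. The midpoints gather around the centre in each class, and their median distance from it was 107 bp in the closest class and 197 bp in the class of 501 to 1000 bp.

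Peaks were wider where the TSSs were farther apart. The median width was 1155 bp with TSSs 1 to 100 bp apart, then 1208, 1342 and 1534 bp, and 1648 bp with TSSs 501 to 1000 bp apart. Over the 813 peaks, Spearman's rho between TSS distance and width was 0.347, a description in which the 8 loci with a pair of peaks count once for each peak. All members had a median width of 1385 bp (quartiles 1090 and 1763), those at other CpG-rich promoters 1310 bp (1000 and 1722.5), those at CpG-poor promoters 937 bp, and those over 500 bp from every canonical coding TSS 796 bp. The share of peaks over 2000 bp was 17.7% among members and 14.7% at other CpG-rich promoters, a difference of 3.04 points (0.417 to 5.93). Very narrow peaks were rare both here and at other CpG-rich promoters, with 7 of the 813 under 500 bp (0.861%) and 59 of 6691 (0.882%), while 23.8% of the peaks away from coding TSSs were that narrow.

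**Figure D3:**
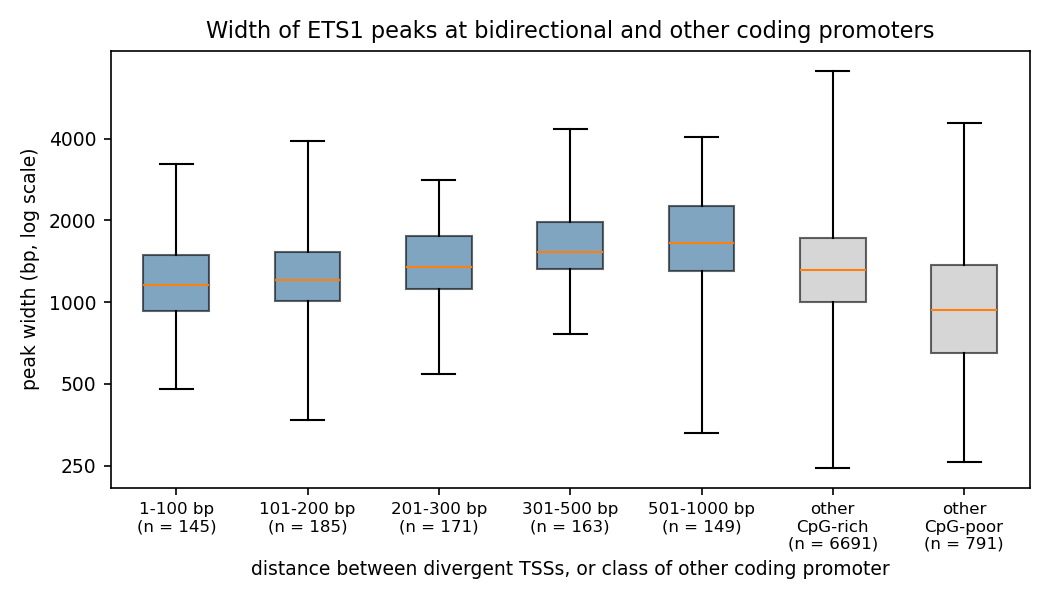
Width of ETS1 peaks (vertical axis, bp, log scale) at bidirectional promoters by the distance between the TSSs (blue) and at other CpG-rich and CpG-poor coding promoters (grey). Boxes give quartiles and median, and whiskers the lowest and highest value; the medians run from 1155 to 1648 bp across the 5 classes, and the other CpG-rich promoters had 1310 bp.

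Among the widest members were those at GGN/SPRED3 (4049 bp), CLCN2/POLR2H (3920 bp), CASKIN2/TSEN54 (3757 bp) and EEF1D/TIGD5 (3699 bp). POLR2H is a subunit shared by the nuclear RNA polymerases, TSEN54 a subunit of the tRNA splicing endonuclease and EEF1D a translation elongation factor. At the other end were CDC42SE1/MLLT11 (330 bp), ATP6V1G2/NFKBIL1 (345 bp), TIMM17B/PQBP1 (368 bp), ST13/XPNPEP3 (388 bp) and KCTD9/CDCA2 (446 bp). None of these narrow peaks covered both TSSs. The peak of CDC42SE1/MLLT11 sat 17 bp from the MLLT11 TSS and 792 bp from that of CDC42SE1, a regulator of the GTPase CDC42.

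A split peak was the exception. At 8 loci there were 2 peaks, with TSSs 509 to 1000 bp apart, and no locus had more. At CBX5/HNRNPA1, which encode heterochromatin protein 1 alpha and an RNA-binding protein of splicing, the peaks of 973 and 639 bp had midpoints 199 bp from the CBX5 TSS and 215 bp from the HNRNPA1 TSS. At ATP6V1G2/NFKBIL1, the locus with the TSSs farthest apart (1000 bp), the peaks of 345 and 575 bp lay 163 bp from the first TSS and 19 bp from the other. APBA3/MRPL54, LMF2/NCAPH2, ST13/XPNPEP3, MIX23/FAM162A, HECTD3/UROD and HCFC1/TMEM187 were the other loci of this kind. Each of these pairs therefore had a peak nearer to either gene.

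Members stood early in the list. Of the 813, 645 were among the first 13485 lines (79.3%, 76.4 to 82.0), against 62.2% of the peaks at other CpG-rich promoters, 54.1% at CpG-poor promoters and 44.2% of those away from coding TSSs. The difference to the other CpG-rich promoters was 17.2 points (14.0 to 20.1). What the list is ordered by is not given in the sources used here, so this is a position and not a strength. Over the 813 peaks, Spearman's rho of list line was -0.05 with TSS distance and -0.13 with width, given as descriptions.

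CCGGAAG was more common at members than at other CpG-rich promoter peaks. In 200 bp centred on the midpoint, and counting both strands, 150 of 813 members held it (18.5%, 15.9 to 21.3), against 11.8% of the other CpG-rich promoter peaks, a difference of 6.69 points (4.05 to 9.60). In 200 bp centred on the TSS it was held by 11.3% of all coding TSSs, by 15.0% of the CpG-rich ones, and by 20.2% of the 8387 CpG-rich TSSs with a peak (19.3 to 21.0) against 5.46% of those without. The 18.5% of members was not above that 20.2%, but the windows were centred on different points. The 8387 TSSs also include 1457 of genes in divergent loci, so these values are not a matched comparison. At least 2 sites were found in 4.31% of members and 1.48% of the other CpG-rich promoter peaks. The bare core GGAA, which every CCGGAAG contains, was held by 88.9% of members, 84.8% of the other CpG-rich promoter peaks and 84.5% of all coding TSSs, so it set the classes apart little. The members' windows had less GC (median 65.5%) than those of the other CpG-rich promoter peaks (70.5%). Their midpoints lay between the TSSs in 49.1%, while those of the other CpG-rich promoter peaks were a median of 86 bp inside the gene. The part of base composition and of window placement in these differences was not tested.

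The sites lay just upstream of the TSS. In the 50 bp before the TSS, there were 16.3 CCGGAAG sites per 100 genes among 1493 genes of occupied divergent loci, 11.6 among the 6930 other CpG-rich genes with a peak, and 5.88 among the 204 genes of the 99 loci without a peak. The 1493 are the genes of the closest pair of each occupied locus that had a peak at their own TSS. Further genes of merged occupied loci, and genes of occupied loci without a peak at their own TSS, are in neither group. The 204 genes do include further genes of merged loci, so these groups were drawn by unlike rules. In the 50 bp before that the values were 9.78, 4.70 and 2.45 per 100 genes. From 50 to 100 bp inside the gene they were 1.47, 1.14 and 0.98. Where the TSSs are close, a site is upstream of both genes and is counted for each.

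**Figure D4:**
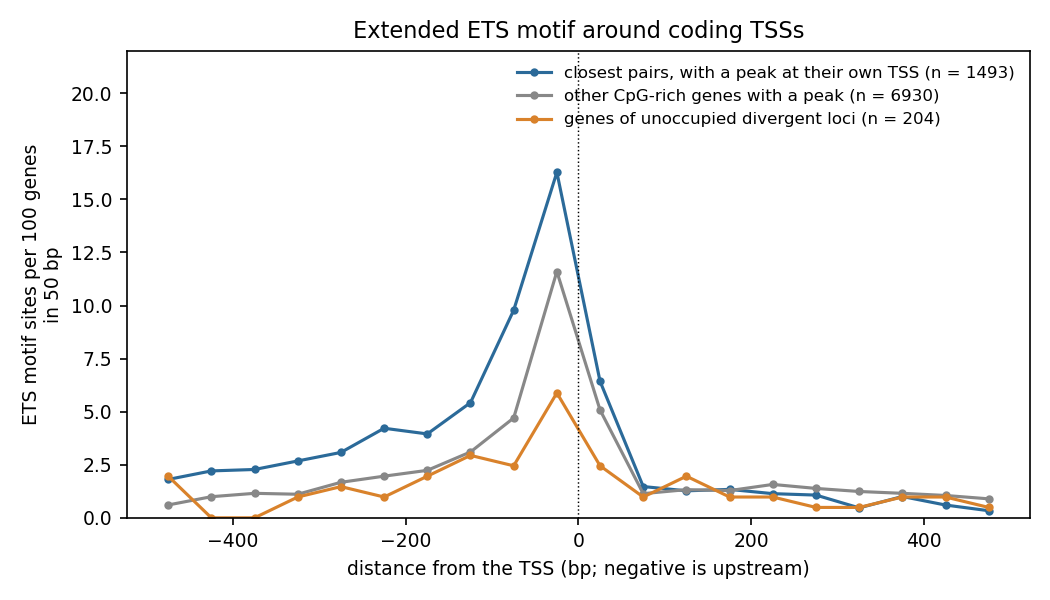
CCGGAAG sites on either strand per 100 genes in bins of 50 bp (vertical axis) by distance from the TSS (horizontal axis, bp, negative is upstream), for genes of the closest pair of occupied divergent loci with a peak at their own TSS (blue, n = 1493), other CpG-rich genes with a peak (grey, n = 6930) and genes of divergent loci without a peak midpoint within 500 bp of a TSS (orange, n = 204). All 3 lines are highest in the 50 bp before the TSS, at 16.3, 11.6 and 5.88 sites.

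The share of occupied loci was higher with more sites at their centre, although the intervals for 0 and 1 site overlapped. In the 200 bp centred between the TSSs, 204 of 805 occupied loci had CCGGAAG (25.3%, 22.5 to 28.5) and 13 of 99 loci without a peak (13.1%, 7.84 to 21.2), and among CpG-rich loci alone the shares were 25.3% (192 of 759) and 14.3% (11 of 77). Counted the other way, 601 of 687 loci with no site were occupied (87.5%, 84.8 to 89.7), 152 of 165 with 1 site (92.1%, 87.0 to 95.3) and all 52 with 2 or more (100%, 93.1 to 100). Most peaks thus lay at loci without the motif at the centre, and some loci with 1 site had no peak.

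Members with and without CCGGAAG in the 200 bp around the midpoint differed in other measures too. The 150 with it had a median width of 1158 bp and the 663 without it 1432 bp. Their TSSs were also closer, with a median of 175.5 against 260 bp. Within TSSs up to 200 bp apart the widths were 1045 bp (n = 83) and 1256 bp (n = 247), and with TSSs farther apart 1355 bp (n = 67) and 1526.5 bp (n = 416), so the order was the same in both classes. Within 500 bp of the midpoint, 383 members had a site (47.1%), and the nearest was a median of 125 bp away.

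Other factors' motifs gave a mixed picture, with 11 motifs searched in all. CCAAT, the box bound by NF-Y, was held by 26.7% of members and 14.8% of the other CpG-rich promoter peaks, a difference of 11.9 points (8.81 to 15.1), but by 25.1% of all coding TSSs. ACTACAA, part of the site of ZNF143, was at 4.06%, 1.20% and 1.71% in the same order, and its difference between members and other CpG-rich promoter peaks was 2.86 points (1.67 to 4.47). TGACGT, bound by CREB and ATF proteins, was at 7.50%, 4.95% and 6.85%. For GGGCGG, the GC box of SP1, members were lower than the other CpG-rich promoter peaks (57.4% against 61.6%, with 53.7% of all coding TSSs), by 4.15 points (signed difference -4.15, interval -7.77 to -0.59).

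The E-box CACGTG was held by 6.52% of members and 4.69% of the other CpG-rich promoter peaks (5.67% of all coding TSSs), a difference of 1.83 points (0.234 to 3.80). For the remaining motifs the interval of this difference included 0. The NRF1 site GCATGCG was held by 3.94% and 2.74% (3.48%), and ATGGCGG, the core bound by YY1, by 8.49% and 8.55% (8.04%). The AP-1 site TGANTCA was at 1.60% and 1.49% (3.04%), while 20.8% of the peaks away from coding TSSs held it. TATAAA, the TATA box, was at 1.85% and 1.20% (6.6%). Windows centred on a midpoint and on a TSS cover different DNA, so the values of all coding TSSs serve as a level and not as a matched comparison. Midpoints of members and of the other CpG-rich promoter peaks also lay differently to the TSS, and the part of this in the differences was not tested. Apart from GGAA within CCGGAAG, none of these motifs contains another.

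Gene families were followed through 15 lists. In 12 of them at least 2 divergent loci were found, and in 11 of the 12 a larger share of these loci had a peak than of the list's other genes. A locus has a longer window than a gene, as said, and the shares are to be read against the 89% of all loci. Some loci, such as MRPL47/NDUFB5 and TCP1/MRPL18, stand in more than a single list, so the lists are not independent. CpG content was not held apart in this comparison. Of all coding genes, 9.47% were in a divergent locus.

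All 13 loci with a cytosolic ribosomal protein gene had a peak, beside 93.0% of the 71 other genes of that list and 89% of all divergent loci. The widest was at RPL7/RDH10 (2750 bp) and the closest TSSs were those of MED22/RPL7A, 87 bp apart under a peak of 1492 bp. Of the mitochondrial ribosomal protein genes, 33.3% (26 of 78) were in divergent loci, and 24 of these 25 loci had a peak (96%). MRPL27/EME1, which pairs the ribosomal gene with a subunit of a structure-specific nuclease, had TSSs 45 bp apart, 1 CCGGAAG between them and a peak of 700 bp. At MRPL43/TWNK, TWNK being the mitochondrial DNA helicase, the values were 46 bp, 1 site and 1065 bp. CYB5RL/MRPL37 was the locus without a peak, and the nearest midpoint lay 53790 bp away. All 7 loci of aminoacyl-tRNA synthetases were occupied, beside 96.6% of the list's 29 other genes and 89% of all divergent loci. Among them HARS1/HARS2, the cytosolic and mitochondrial histidyl-tRNA synthetases placed head to head, had TSSs 85 bp apart, 2 CCGGAAG sites between them and a peak whose midpoint lay 3 bp from the HARS2 TSS.

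Of the respiratory chain and ATP synthase list, assembly factors included, 26 of 29 loci had a peak (89.7%), close to the share of all loci, against 79.4% of the list's other genes. The 3 without one were NDUFA8/MORN5, LRRC41/UQCRH and NDUFB11/RBM10. ATP5PF, a coupling subunit of the ATP synthase, is paired with GABPA, the DNA-binding subunit of the ETS factor GABP. This was the only one of 28 ETS factor genes in a divergent locus, and it had a peak of 1645 bp over TSSs 68 bp apart with 1 CCGGAAG between them. Its midpoint lay 308 bp inside GABPA.

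Genome maintenance followed the same order. Of 34 loci with a DNA repair or replication gene 33 had a peak (97.1%), and of the list's other genes 90.5%. MCM7/AP4M1, with a subunit of the replicative helicase, had 2033 bp, and VPS35/ORC6, with a subunit of the origin recognition complex, 1969 bp. POLE3/C9orf43 and SMYD4/RPA1 had TSSs 72 and 103 bp apart with peaks of 1053 and 1212 bp. The exception was MRE11/ANKRD49, with the nuclease of double-strand break repair, where the nearest midpoint lay 50232 bp away although the 200 bp at its centre held 1 CCGGAAG. All 8 proteasome loci and all 13 chaperone loci had peaks, beside 89% of all divergent loci. Of the other genes of these lists, 95% and 78.7% had a peak, by the shorter window of a single TSS. TCP1/MRPL18, with a subunit of the cytosolic chaperonin, had TSSs 865 bp apart, and its peak of 2538 bp was centred between them, 432 and 433 bp away.

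RNA polymerase and splicing factor loci were occupied in 21 of 24 cases (87.5%). C22orf23/POLR2F, TFPT/PRPF31 and POLR2L/TSPAN4 had no peak by the rule, though the nearest midpoint was 626 bp from a TSS at TFPT/PRPF31 and 582 bp at POLR2L/TSPAN4. The list labelled cilium genes gave a wide gap, with 33 of 35 loci (94.3%) against 55.3% of the list's 132 other genes. Besides IFT, CFAP and BBS genes it holds CEP and TTC genes, TTC19 and TTC3 among them. Its values are therefore not those of cilium components alone. HIGD2B/BBS4, BBS4 being a subunit of the BBSome, had TSSs 25 bp apart, 1 CCGGAAG between them and a peak of 790 bp. EBNA1BP2/CFAP57 had 40 bp, 1 site and 1272 bp. DDX5/CEP95 had one of the wider peaks of this list (2342 bp), and the 2 loci without a peak were IFT25/LRRC42 and FAM219A/DNAI1. Of the zinc finger (ZNF) genes 38 of 504 were in divergent loci (7.54%, beside 9.47% of all coding genes), and 27 of their 31 loci had a peak (87.1%), against 61.8% of the other ZNF genes.

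Replication-dependent histone genes were the list with the lower share. Of its 64 genes 22 were in divergent loci, mostly an H2A gene head to head with an H2B gene, and 5 of these 11 loci had a peak (45.5%), against 50% of the list's other genes. The widths were 1928 bp at H2AC17/H2BC17, 1069 bp at H2BC4/H2AC6, 1053 bp at H2AC25/H2BC26, 990 bp at H3C7/H2BC9 and 591 bp at H2BC11/H2AC11. Their midpoints lay 116 to 473 bp from the nearer TSS, with a median of 283 bp, where all members had 90 bp. At the 6 loci without a peak the nearest midpoint was between 525 bp (H2AC14/H2BC14) and 265670 bp (H2AC1/H2BC1) away. Histone genes exist as similar copies and the authors kept only reads with a single place in the genome, so the values of this list are uncertain; likeness between the copies was not tested.

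Both type IV collagen loci had a peak, beside 89% of all divergent loci. None of 149 keratin and keratin-associated genes was in a divergent locus (5.37% had a peak). Nor was any of 34 genes of the epithelial to mesenchymal transition and TGF-beta signalling, of which 67.6% had a peak at the TSS. Of all coding genes 9.47% were in a divergent locus and 46.9% had a peak at the TSS. Of CpG-rich genes without a divergent coding partner 61.9% had a peak, and CpG content was not held apart in these lists.

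**Figure D5:**
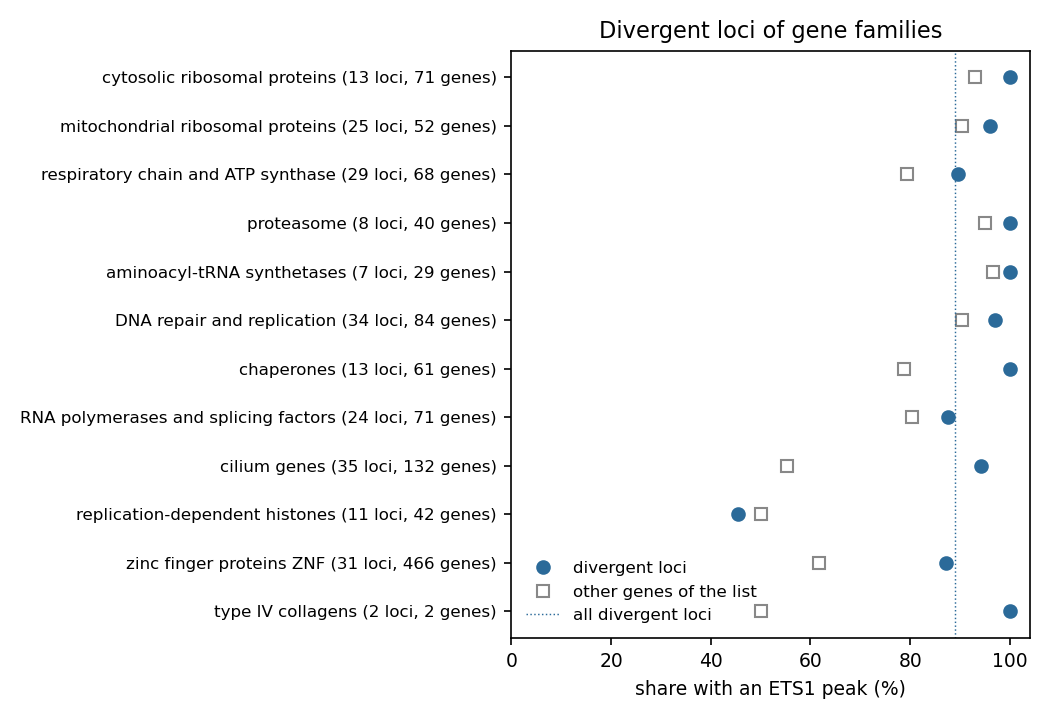
Share with an ETS1 peak (horizontal axis, %) for 12 gene lists with at least 2 divergent loci, with filled circles for the loci, open squares for the list's other genes and a dotted line for all divergent loci (89%). The loci stand to the right of the other genes in 11 lists, and for the replication-dependent histones they stand to the left (45.5% and 50%).

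A set of 16 pairs that textbooks give as bidirectional was looked up as well. The rule took in 14 of them, and all 14 had 1 peak each, with widths of 762 to 2558 bp. This small set is to be read beside the 89% of all 904 divergent loci that had a peak. These peaks did not stand early in the list as a group, with 6 of 14 in its first 13485 lines (42.9%, beside 79.3% of all members). RANBP1/TRMT2A was not in the set, because its canonical transcripts overlap by 1122 bp. HSPD1/HSPE1, which encode the mitochondrial chaperonin and its lid, had TSSs 539 bp apart, and their peak of 1964 bp stood on line 357 with its midpoint 24 bp inside HSPD1. NPAT/ATM, a histone gene activator and the kinase of the DNA damage response, had 429 bp, 1395 bp and 1 CCGGAAG between the TSSs. ZAR1L/BRCA2 had 145 bp, 1222 bp and 1 site.

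The peak covered both TSSs in 11 of the 14. It covered only 1 of them at PPAT/PAICS and at COL4A4/COL4A3. At PPAT/PAICS, enzymes of purine synthesis, the 774-bp peak lay 108 bp from the PAICS TSS and 537 bp from the PPAT TSS. At COL4A4/COL4A3, chains of the collagen IV of the kidney filter, the 762-bp peak lay 294 bp inside COL4A3. Further pairs were TAP1/PSMB9 (2538 bp), SURF1/SURF2 (1482 bp), HADHA/HADHB (1489 bp) and TK1/AFMID (1533 bp), beside those shown above with their sequence.

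The loci without a peak by the rule were of several kinds, and a peak with its midpoint beyond 500 bp can still reach a TSS. The nearest midpoint lay 500 to 1000 bp from a TSS at 21 of the 99, within 10000 bp at another 19, within 100000 bp at 40 and farther at 19. TFPT/PRPF31 and POLR2L/TSPAN4, given above, belonged to the first kind. Among the far ones were genes that few tissues use. MAGEA12/CSAG1, cancer-testis antigens, had the nearest midpoint 161591 bp away, OR11A1/OR2H1, olfactory receptors, 45436 bp, ABCG5/ABCG8, the sterol transporters of liver and gut, 38990 bp, and DUOX2/DUOXA2, the thyroid oxidase and its maturation factor, 15568 bp. Others are used by most cells, such as GLA/HNRNPH2 (16998 bp), with a lysosomal galactosidase and a splicing regulator, and SELENOF/HS2ST1 (139750 bp). These examples were chosen after their values were seen. BOLA2B/SLX1A and BOLA2/SLX1B are copies, identical at 1001 of 1001 bases, so that a read from within these bases has no single place.

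The loci without a peak did not have less GC (median 63.3% against 62.6% at occupied loci), but their CpG ratio was lower (0.735 against 0.798) and fewer were CpG-rich (77.8% against 94.3%). Their TSSs were 191 bp apart in the median, against 240 bp. The window in which a midpoint counts grows with this distance, and the part of the rule in the difference was not tested.

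The limits of the rule cut through a continuous range. Just inside the 500 bp limit were peaks at HECTD3/UROD (490 bp from the nearer TSS), MBLAC2/POLR3G (483 bp) and KARS1/TERF2IP (479 bp), and just outside were those at CCDC148/PKP4 (502 bp), C11orf98/CSKMT (507 bp) and a further peak at H2AC25/H2BC26 (509 bp). The peaks at CCDC148/PKP4 and C11orf98/CSKMT were 2162 and 2425 bp wide. They reached a TSS, although these loci are counted as without a peak. Just inside the limit on the TSS distance were both peaks of ATP6V1G2/NFKBIL1 (1000 bp) and that of HNRNPA2B1/CBX3 (999 bp). Just outside it were ABHD14B/ABHD14A-ACY1 (1011 bp), USH1G/OTOP2 (1018 bp) and HNRNPUL2/TTC9C (1029 bp).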

How the data were processed

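The authors carried out ETS1 ChIP-Seq on 3 SCC25 samples, and mapped reads to hg19 with Bowtie 1.1.1 (SAMtools 1.3), per the labels' processing notes. Reads with a single locus were kept, peaks were called with MACS2 against a merged input, and IDR gave 1 pooled consensus list. The deposited list holds positions only.

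Canonical TSSs came from GENCODE 44 on GRCh37 (19819 of 20098 coding genes had one) and sequence from the GRCh37 genome. Python 3.11.15, numpy 2.4.6, pandas 2.3.3, scipy 1.17.1 and pysam 0.24.0 were used. Motifs were matched exactly on both strands in 200 bp. Shares have 95% Wilson intervals and differences 95% Newcombe intervals. The code was tested on simulated data. Genes named were textbook pairs, family examples (widest peaks, closest TSSs), extremes of width and motif number, loci with several peaks and peaks next to the limits, plus loci without a peak. Members, lists and motifs were chosen with earlier results of these data known. The 12 peaks on Y and M were left out. Some loci that the naming rule covers are counted but not reported here by name.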

Additional observations from a re-analysis of the deposited data

How the results depend on the processing

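No value was tested, so "moved" here means leaving the 95% interval of the reported share or difference (for width, its quartiles). No paired analysis was possible because the list is pooled and holds no value per sample, and for the same reason no replicate could be left out. Over 8 alternative settings the number of peaks, which has no interval, ran from 645 to 1202 around 813, always within 1.5 times. Of the other values 21 moved, 17 stayed and none changed sign. If 1 overlapping base sufficed, 92.1% of loci, 50% of other promoters (42.1 points apart) and 96.5% of peaks near both TSSs resulted. With the first lines of the list only, 71.2% and 26.6% had a peak, and without peaks over 3000 bp 42.1% of other promoters. A 250 bp limit gave 78.7%, 32.0% and 50.8% near both TSSs, and a 1000 bp limit 91.4%, 48.8% (42.6 points) and 97.3%. With TSSs within 500 bp of each other, 93.7% of peaks were near both. Every coding TSS gave 84.6% of loci and 46.2% of others (38.5 points), and CpG-rich promoters alone a difference of 28.9 points instead of 45.9. CCGGAAG was held by 39.6% of members in 600 bp and by 25.1% in 200 bp between the TSSs. The counts of 1202 and 645 peaks differ from 813 by the TSSs and the peaks used. Without summits, heights or depth, a weak site cannot be told from a missed one.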

Other observations

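Occupied loci were spread over all chromosomes. On the 22 chromosomes other than X, 82.5% to 100% of the divergent loci had an ETS1 peak, and on X it was 15 of 25 (60%). The 10 loci without a peak on X included GLA/HNRNPH2, MAGEA12/CSAG1 and NAP1L3/FAM133A, which were named after their values were seen.

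Among the 813 peaks, GGGCGG was less common beside CCGGAAG. It was held by 49.3% of the 150 peaks with CCGGAAG in the 200 bp around the midpoint and by 59.3% of the 663 without it, a signed difference of -9.94 points (95% Newcombe interval -18.6 to -1.17). Of the 9 motifs compared in this way it was the 1 whose interval excluded 0, with no adjustment for the number compared. CCAAT was held by 24% and 27.3% (difference -3.30 points, -10.4 to 4.81) and ACTACAA by 4% and 4.07%. The GC content of the windows was not held apart here.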
